A study of Mus musculus with 12 samples.

Results

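Replication-dependent histone genes were taken as every row of the expression table whose mouse symbol begins with Hist1h, Hist2h, Hist3h or Hist4h, pseudogenes left out. In the GENCODE M21 annotation 67 protein-coding genes carry such a symbol, and 52 of them had a row among the 36229 rows of the table (6 of class H1, 16 of H2A, 13 of H2B, 6 of H3 and 11 of H4). The other 15 were not analysed here. Of the 52, 43 lie in histone cluster 1 on chromosome 13, 7 in cluster 2 on chromosome 3 and 2 in cluster 3 on chromosome 11.

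The series compares embryonic fibroblasts of C57BL/6 mice that lacked both Kdm5a and Rb1 (DKO), Rb1 alone (Rb1 KO), Kdm5a alone (Kdm5a KO) or neither (WT). Kdm5a encodes a demethylase of histone H3 and a known partner of the retinoblastoma protein. Rb1 encodes the retinoblastoma protein itself, a repressor of E2F transcription factors. All groups, WT included, received Adeno-MyoD, an adenovirus carrying the muscle transcription factor MyoD, and were kept for 24 h in differentiation medium (10 µg/ml insulin, 2% horse serum), followed by 72 h in fresh medium of the same kind. Each of the 4 genotypes had 2 libraries of the whole (mixed) culture, in which unfused cells and myotubes are pooled, made from 1.7 µg of RNA after removal of ribosomal RNA and read for 40 bases. DKO and WT also had 2 libraries each of purified myotubes, which had been trypsinised, separated by size and left for 24 h to recover, and whose RNA (1.5 µg) went through oligo(dT) selection and 15 PCR cycles before reads of 36 bases. Nothing in the labels ties the 2 libraries of a group to separate embryos or cultures, so p-values measure only the spread between libraries, which may be technical.

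Replication-dependent histone genes supply the core histones H2A, H2B, H3 and H4 and the linker histone H1 that package newly made DNA. They are transcribed mainly in S phase, lack introns in most cases, and give messengers that end just after a conserved stem-loop in place of a poly(A) tail. The stem-loop-binding protein SLBP, encoded by Slbp, holds that stem-loop during processing, translation and decay, and NPAT, encoded by Npat, is the transcription coactivator of the clusters. Some members can also be made as polyadenylated messengers from a site farther downstream, which in human cells has been seen mostly in cells that have left the cycle. A list of 7 mouse genes with the same names as human members of that kind (Hist1h1c, Hist1h2ac, Hist1h2bc, Hist2h2aa1, Hist2h2be, Hist3h2a and Hist3h2ba) is called the polyadenylated list below; the status of these mouse messengers was not measured.

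The 3′ ends of the annotated transcripts separate the members. A stem of 6 paired bases around a loop of 4 bases was found by pattern in the GENCODE M21 transcripts of 37 of the 52 members. In 20 of them the transcript stopped within 100 bases of the stem-loop, in 17 it ran on farther, and in 15 no stem-loop lay in the annotated transcript, in some because it stops at or near the stop codon. The stem-loops of the genes on which the results turn are shown 5′ to 3′, with the 16 bases of the stem-loop in capitals and up to 5 bases on each side.
Hist1h1c: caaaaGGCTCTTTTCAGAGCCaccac
Hist3h2a: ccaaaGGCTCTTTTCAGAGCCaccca
Hist3h2ba: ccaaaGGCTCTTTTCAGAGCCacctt
Hist1h2ac: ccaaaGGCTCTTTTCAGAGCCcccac
Hist1h2be: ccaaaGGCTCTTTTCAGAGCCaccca
Hist1h2bb: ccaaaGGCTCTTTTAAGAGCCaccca
Hist1h3a: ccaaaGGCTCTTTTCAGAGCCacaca
Hist1h4b: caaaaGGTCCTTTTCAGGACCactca
Hist1h4d: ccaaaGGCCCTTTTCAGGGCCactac
The transcripts of Hist1h2bb, Hist1h3a and Hist1h4b end 23, 37 and 28 bases after the stem-loop. Those of Hist1h1c, Hist3h2a, Hist1h2be and Hist1h2ac run on for 840, 1643, 1861 and 2010 bases, and that of Hist3h2ba for 169. Hist1h4d, which is not on the polyadenylated list, also has an annotated transcript that runs on, for 770 bases. No stem-loop matched in the annotated transcripts of Hist1h2bc or of Hist2h2be, which extend far past the stop codon. A poly(A) signal, AATAAA or ATTAAA on the transcript strand, lay in the last 50 bases of 14 of the 52 members, among them Hist1h1c, Hist3h2a, Hist3h2ba, Hist1h2be and Hist2h2be.

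Many H2A and H2B genes stand head to head and share the space between their starts. Of 12 such pairs with at most 500 bases between them, 8 had both genes in the table. The promoter window of Hist1h2ac is shown because Hist1h2bc, its neighbour 250 bases away on the other strand, behaved differently in these cultures. The windows of the linker histone genes Hist1h1c and Hist1h1b follow for the same reason. Each is the 250 bases before the start in RefSeq's mouse table (GRCm38.p6), written along the gene's strand, with matches to TATAAA on that strand and to CCAAT or the octamer ATTTGCAT on either strand in capitals. They lie at chr13:23683960-23684209 on the minus strand for Hist1h2ac, chr13:23738557-23738806 on the plus strand for Hist1h1c and chr13:21780626-21780875 on the minus strand for Hist1h1b.
Hist1h2ac: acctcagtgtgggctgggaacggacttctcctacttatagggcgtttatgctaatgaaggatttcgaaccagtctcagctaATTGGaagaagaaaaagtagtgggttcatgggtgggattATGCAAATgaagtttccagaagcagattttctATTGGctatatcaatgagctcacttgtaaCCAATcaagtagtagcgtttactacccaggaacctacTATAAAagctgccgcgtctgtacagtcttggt
Hist1h1c: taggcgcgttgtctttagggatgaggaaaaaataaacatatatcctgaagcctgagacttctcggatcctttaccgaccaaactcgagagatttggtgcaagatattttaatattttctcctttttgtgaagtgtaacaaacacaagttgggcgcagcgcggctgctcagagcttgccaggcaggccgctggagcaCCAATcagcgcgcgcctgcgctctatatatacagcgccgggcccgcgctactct
Hist1h1b: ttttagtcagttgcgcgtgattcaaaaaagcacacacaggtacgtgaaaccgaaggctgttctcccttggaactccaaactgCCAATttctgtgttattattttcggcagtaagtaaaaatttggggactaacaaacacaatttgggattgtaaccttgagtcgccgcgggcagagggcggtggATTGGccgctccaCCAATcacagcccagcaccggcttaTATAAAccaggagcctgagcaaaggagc
Of the 67 reference members, 62 had a promoter entry. CCAAT on either strand was in 51 of the 62 windows (82.3%), against 34.5% of all 27025 promoter windows of the same length. TATAAA was in 24 windows (38.7%), against 8.12% of all. The octamer, the site of the POU factor OCT1 encoded by Pou2f1, was in 13 windows (20.97%), all of H2A or H2B genes, against 1.61% of all. The E2F-type motif TTTCGCGC was in 7 windows, again all of H2A or H2B genes, against 0.255% of all promoters, and TTTGGCGC was in none of the 62, against 0.437%. A match is a description of the letters only.

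The values are normalised read counts, that is, whole reads divided by a size factor per library, and the libraries held 11983750 to 41309134 reads in mixed cultures and 8688604 to 15570731 in purified myotubes. Of the 52 members 46 had a read in a mixed library and 41 in a purified one. The 6 without a read share most of their sequence with other genes: in 28 members, these 6 included, fewer than 50% of the 40-base windows of the transcript were found in no other gene. The DKO purified libraries differed from each other by a median of 0.508 on the log2 scale, against 0.106 to 0.185 in the other groups, so their values are given by library, and with 1 library left out where that changes a call named here. Rb1 messenger averaged 5485 ± 250 in DKO mixed, 4452 ± 6.8 in Rb1 KO, 5136 ± 80 in Kdm5a KO and 5633 ± 23.6 in WT (SD, n = 2 each), and Kdm5a 1344 ± 36, 1990 ± 147, 1140 ± 73 and 1754 ± 165 in the same groups; whether reads fall in the deleted parts of these genes was not examined. The Kdm5a KO and DKO libraries had the female-expressed Xist and no read of the Y-linked Ddx3y, and the Rb1 KO and WT libraries had Ddx3y and at most 2.48 normalised reads of Xist, so that for comparisons across Kdm5a genotypes the embryo's sex and the genotype cannot be told apart.

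In WT mixed cultures most histone signal came from a few genes. Hist1h1c (ENSMUSG00000036181), a linker histone gene, had 5475 and 5648 normalised reads and made up 51.3% and 50.5% of the summed member value in the 2 libraries. Hist1h2bc (ENSMUSG00000018102), an H2B gene, had 2034 and 2359. Per kilobase of exon, Hist1h1c was highest at 3565 and Hist1h2bc next at 1900, and Hist1h4h, the third, reached 268. The 7 genes of the polyadenylated list together held 76.9% and 77.4% of member value in the WT mixed libraries, and 87.1% and 85.4% in the WT purified libraries. All members together made up 0.0542% and 0.0568% of the WT mixed signal.

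Loss of Rb1 changed the composition of this gene family in mixed cultures. Summed over the 45 genes outside the polyadenylated list, the level was 9005 and 8299 in Rb1 KO libraries, against 2468 and 2522 in WT. Summed over the 7 genes of the list, it was 4546 and 4492 in Rb1 KO, against 8204 and 8658 in WT. The first sum was higher and the second lower in both Rb1 KO libraries than in either WT library, and the share of the list was 33.5% and 35.1% of member value in Rb1 KO. In bulk RNA, fewer cells of a type and less RNA per cell cannot be told apart. Markers of muscle and fibroblasts moved at the same time: the summed level of 10 skeletal muscle markers was 65509 to 66176 in Rb1 KO against 388935 to 420747 in WT, with all 10 lower, the embryonic myosin gene Myh3 among them (4384 and 4678 in Rb1 KO, 77084 and 76912 in WT), and that of 10 fibroblast markers was 62244 to 73135 against 11307 to 11475, with all 10 higher. Their part in the histone result was not tested. Markers of other cells were scarcer: sums of macrophage and blood, endothelial, epithelial and adipocyte markers reached at most 358 in any mixed library, with the globin gene Hba-a1 at 0, and neural and glial markers summed to 8025 to 8333 in Rb1 KO against 2145 to 2624 in WT.

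**Figure D1:**
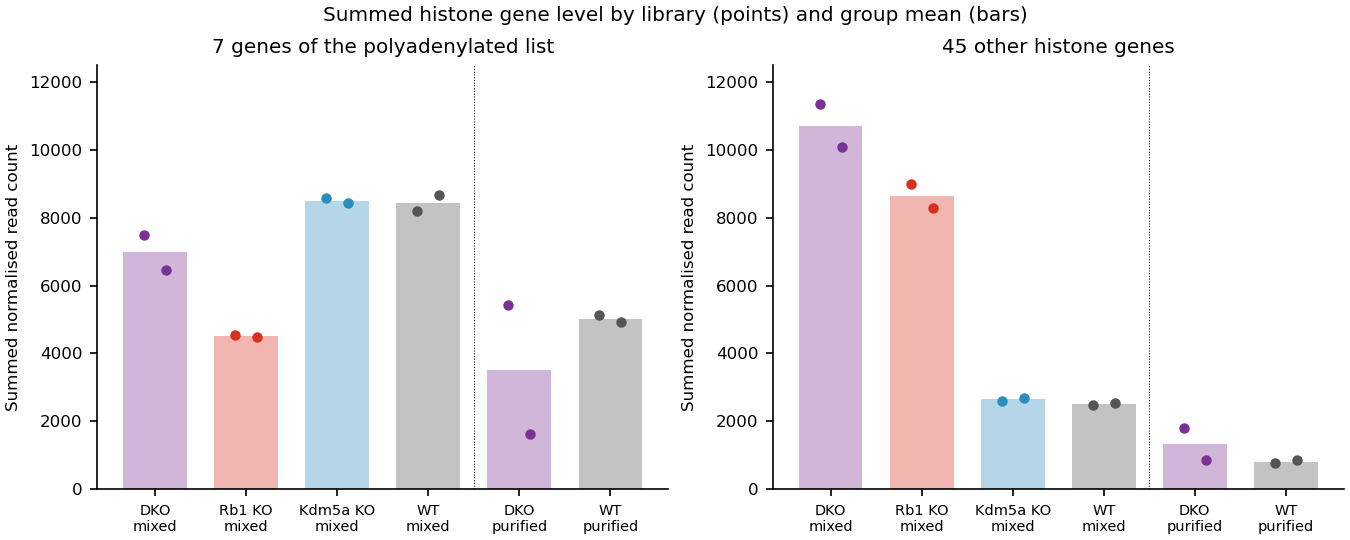
Summed normalised read count of the 7 genes of the polyadenylated list (left) and of the 45 other histone genes (right), by group; points are libraries and bars the mean of 2. In mixed cultures the sum of the 45 genes lay between 8299 and 11349 in Rb1 KO and DKO libraries and between 2468 and 2676 in Kdm5a KO and WT libraries.

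Each class total is a level over all its members. H4 genes summed to 2555 and 2276 in Rb1 KO, against 354 and 372 in WT, and H3 genes to 186 and 188 in Rb1 KO, against 84.9 and 64.0 in WT. H2A genes summed to 984 and 898 in Rb1 KO, against 654 and 602 in WT. H1 genes reached 7636 and 7539 in Rb1 KO, against 6500.4 and 6658 in WT, and H2B genes 2190.2 and 1889.9 in Rb1 KO, against 3078 and 3484 in WT. H2B was thus the class whose total was lower in both Rb1 KO libraries, and H4 the class with the widest gap in the other direction.

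The fit over all genes, limma on log2(value + 1) with Benjamini-Hochberg adjustment at 0.05, tested 34 of the 52 members, those with a mean of at least 10 over the 8 mixed libraries. Between Rb1 KO and WT, 71.1% of the 17199 genes tested passed (36.8% rose and 34.3% fell), with a median log2 change of 0.03. Of the 34 members 25 rose, 5 fell and 4 did not pass, with a median of 2.38. A gene could enter the test through the groups in which it was high, so this count does not describe all members. Of 22 members with a mean of at least 10 in both groups 15 rose and 5 fell, and of the 12 tested with a lower WT mean 10 rose. Leaving out the 12 tested members that overlap another gene left 16 risers and 3 fallers among 22.

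Among linker histone genes, Hist1h1b (ENSMUSG00000058773) had 878 and 882 normalised reads in Rb1 KO, against 20.3 and 35.2 in WT. Its log2 change was 4.99 ± 0.24 (SE; adjusted p = 1.3e-09 by limma). Hist1h1a had 947 and 817 in Rb1 KO, against 71.8 and 109.8 in WT, a change of 3.29 ± 0.20 (limma adjusted p = 9.4e-09). These genes encode somatic H1 subtypes known for synthesis in dividing cells, and their groups did not overlap. Hist1h1e had 1353 and 1443 in Rb1 KO, against 281 and 305 in WT, with a change of 2.25 ± 0.09 (limma adjusted p = 2.2e-10). Hist1h1e shares exonic sequence with Hist1h2be and the predicted gene Gm11398, and no strand-specific counting is stated, so its reads are uncertain. Hist1h1d had 1230.1 and 1122 in Rb1 KO, against 651 and 548 in WT, and rose by 0.98 ± 0.11 (limma adjusted p = 4.0e-06).

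Hist1h1c went the other way. It had 3206 and 3268 normalised reads in Rb1 KO, against 5475 and 5648 in WT, and fell by 0.78 ± 0.07 on the log2 scale (limma adjusted p = 3.4e-07). Even so it stayed the highest member per kilobase in Rb1 KO, at 2075, with Hist1h1a next at 1190.2 and Hist1h1b at 1184. Its share of member value was 23.7% and 25.6% in Rb1 KO, against 51.3% and 50.5% in WT.

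H4 genes rose without exception among the 8 tested, by 0.99 to 5.50. Of these, Hist1h4a, Hist1h4b and Hist1h4f had a WT mean under 10 and had entered the test through the groups in which they were high. Hist1h4d had 769.7 and 636 normalised reads in Rb1 KO, against 40.7 and 48.0 in WT, a change of 3.96 ± 0.16 (limma adjusted p = 2.7e-10). Hist1h4h had 513 and 456 in Rb1 KO, against 117 and 134 in WT, and Hist1h4j 348 and 392 in Rb1 KO, against 40.7 and 38.4 in WT. All these genes encode the same H4 protein, and each was higher in both Rb1 KO libraries than in either WT library. Hist1h4f had 189 reads over the Rb1 KO libraries and 3 over the WT libraries, a ratio of 60.6 with a 95% counting interval of 20.4 to 296. Counting intervals cover counting error only.

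In H3, 2 of 6 members were tested and both rose. Hist1h3a had 63.5 and 79.6 normalised reads in Rb1 KO, against 2.39 and 2.13 in WT, a change of 4.47 ± 0.46 (limma adjusted p = 1.7e-06). Hist1h3b had 115 and 105 in Rb1 KO, against 76.6 and 18.1 in WT, with 1.52 ± 0.50 (limma adjusted p = 0.015). The WT libraries of Hist1h3b lay far apart, so the size of its change rests on which is used. Hist1h3e did not reach the filter, with 1.35 and 3.62 in Rb1 KO, against 5.98 and 39.4 in WT.

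The H2A and H2B genes were divided. Hist1h2ab had 204 and 176 normalised reads in Rb1 KO, against 11.96 and 14.9 in WT, a change of 3.73 ± 0.28 (limma adjusted p = 7.5e-08). Hist1h2ag had 114 reads over the Rb1 KO libraries and 2 over the WT libraries, a ratio of 54.8 (95% counting interval 14.8 to 458). Hist1h2bb had 271 and 190.1 in Rb1 KO, against 5.98 and 4.26 in WT, a change of 5.23 ± 0.50 (limma adjusted p = 8.0e-07). The annotated transcripts of these genes end soon after the stem-loop, and their groups did not overlap. Hist1h2ai, Hist1h2bk and Hist1h2bp also rose, by 2.89, 4.86 and 3.69. Fewer than 50% of the 40-base windows of Hist1h2ab, Hist1h2ag, Hist1h2ai and Hist1h2bk are unique, and no source used here states how the authors treated reads with several matches.

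The fallers included 2 of the highest H2B genes. Hist1h2bc had 843 and 768 normalised reads in Rb1 KO, against 2034 and 2359 in WT, and fell by 1.44 ± 0.09 (limma adjusted p = 1.8e-08). Hist2h2be (ENSMUSG00000068854) had 44.6 and 26.2 in Rb1 KO, against 133 and 162 in WT, and fell by 2.07 ± 0.27 (limma adjusted p = 1.6e-05). Hist1h2be had 440.2 and 336 in Rb1 KO, against 741 and 746 in WT, and fell by 0.95 ± 0.15 (limma adjusted p = 7.7e-05), with the overlap with Hist1h1e named above. Every Rb1 KO library lay below every WT library for these genes. Hist3h2a, an H2A gene that overlaps Trim17, had 390.2 and 349 in Rb1 KO, against 544 and 479.7 in WT. It fell by 0.47 ± 0.16 (limma adjusted p = 0.020), but without Rb1 KO replicate 2 or WT replicate 1 the adjusted p was 0.12 or 0.10.

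On the polyadenylated list 4 of the 6 tested members fell (Hist1h1c, Hist1h2bc, Hist2h2be and Hist3h2a), Hist1h2ac rose and Hist3h2ba did not pass, with a median of -0.62. Of the 28 tested members outside the list 24 rose and 1 fell, with a median of 3.04. Some of the 28 had a WT mean under 10 and had entered the test through the groups in which they were high. Their count and median thus follow in part from the filter. Of the 20 members whose annotated transcript stops within 100 bases of its stem-loop 14 were tested, 7 of them with a mean of at least 10 in both groups, and these 7 rose, with a median of 1.94. The other 7 tested had a lower WT mean and had entered the test through the groups in which they were high. Hist2h2aa1, the seventh on the list, had no read in any library and no window unique to it. These counts were read on a list drawn up with earlier results of these data known, and they are descriptions.

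**Figure D2:**
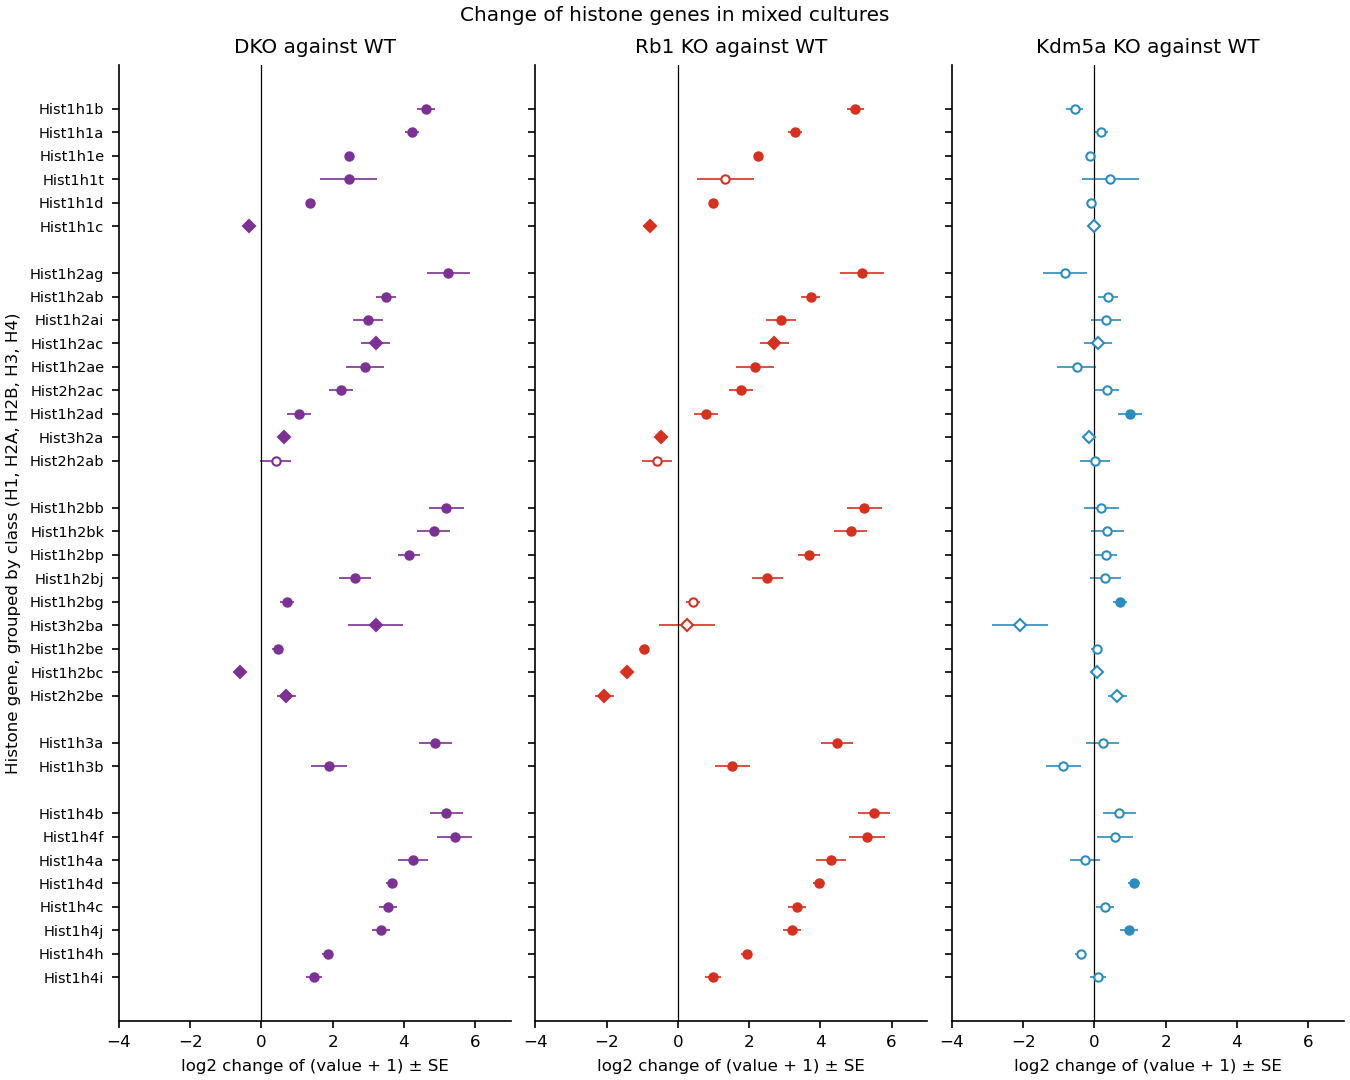
Log2 change of (value + 1) ± SE for the 34 tested histone genes in mixed cultures, grouped by class and ordered within a class by the change in Rb1 KO; diamonds mark the polyadenylated list, and filled symbols passed the adjusted p threshold. In Rb1 KO against WT the changes ran from -2.07 for Hist2h2be to 5.50 for Hist1h4b, and in Kdm5a KO against WT only Hist1h2ad, Hist1h2bg, Hist1h4d and Hist1h4j passed.

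Head-to-head neighbours differed in their changes. Hist1h2ac had 62.1 and 69.7 normalised reads in Rb1 KO, against 13.2 and 6.40 in WT, and rose by 2.71 ± 0.40 (limma adjusted p = 4.9e-05), while Hist1h2bc, across the 250-base space printed above, fell by 1.44. Hist2h2ac, 238 bases from Hist2h2be, had 62.1 and 57.0 in Rb1 KO, against 13.2 and 21.3 in WT, and rose by 1.77 ± 0.33 (limma adjusted p = 4.0e-04), while Hist2h2be fell by 2.07. In another pair, Hist1h2ae rose by 2.15 and Hist1h2bg, 175 bases away, changed by 0.42 without passing. Both partners of the last pair rose, Hist1h2ag by 5.17 and Hist1h2bj by 2.51. The other 4 of the 8 pairs had at least 1 untested partner. In one of them Hist1h2bp rose by 3.69 and Hist1h2an, on the other side, had 2 reads over the Rb1 KO libraries and none over the WT libraries. Hist1h2ac overlaps predicted small genes, and fewer than 50% of the windows of Hist2h2ac, Hist1h2ag, Hist1h2bg and Hist1h2bj are unique; the difference within a pair was not tested.

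**Figure D3:**
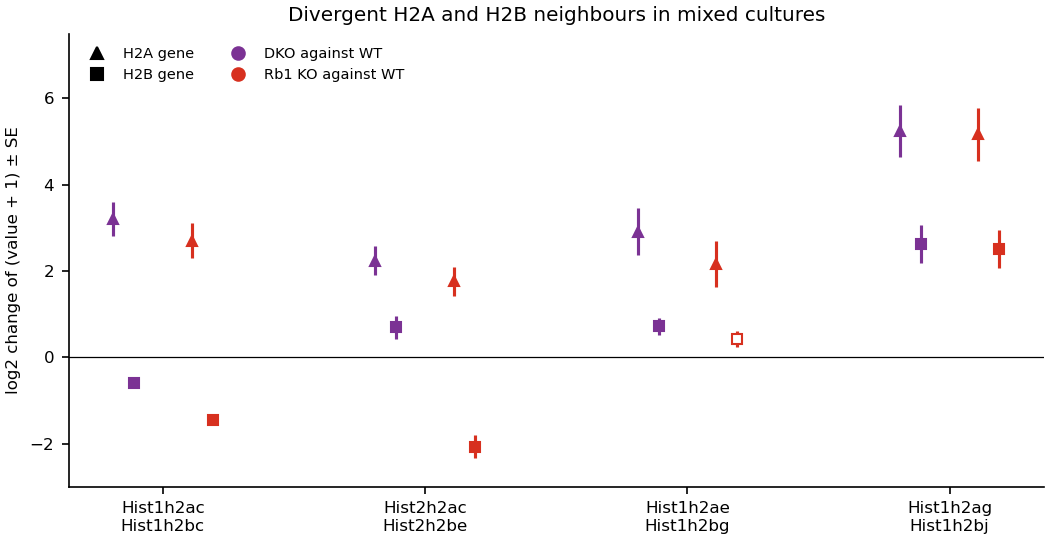
Log2 change of (value + 1) ± SE of the H2A gene (triangles) and the H2B gene (squares) of 4 head-to-head pairs, in DKO (left of each pair of columns) and Rb1 KO (right) against WT; open symbols did not pass. For Hist1h2ac and Hist1h2bc the changes in Rb1 KO were 2.71 and -1.44.

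Other genes of the pathway were counted in the same fit, where 71.1% of all genes tested passed (36.8% rose and 34.3% fell). All 24 S-phase genes rose in Rb1 KO against WT, with a median of 3.81, among them Ccna2, the S-phase cyclin A, with 4835 and 4173 normalised reads against 312 and 310.2 in WT. Of 21 genes for transcription and 3′-end processing of histone messengers 11 rose and 4 fell. The share of this list that passed was close to that of all genes. Slbp had 930.3 and 917 in Rb1 KO, against 194 and 245 in WT (log2 change 2.08 ± 0.12), and Npat 3206 and 3129.8 in Rb1 KO, against 1533 and 1468 in WT (1.08 ± 0.07). Casp8ap2 (FLASH), which binds the processing complex, rose by 1.95 and the cleavage factor gene Cstf2 by 1.36. The largest change of that list was a fall: Coil, encoding the Cajal body scaffold coilin, had 91.8 and 91.4 in Rb1 KO, against 1129 and 1284 in WT, a log2 change of -3.70 ± 0.12.

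The next lists stand against the same 36.8% of all genes that rose and 34.3% that fell. Of 10 genes for translation and decay of histone messengers 7 rose and 1 fell. They were led by Tut4, a uridylyl transferase, with 2.78 ± 0.08, and Eri1, the exonuclease that trims the stem-loop end, with 2.70 ± 0.11. Of 27 histone chaperone and assembly genes 21 rose and 4 fell. Mms22l, which acts at replication forks with Tonsl, rose by 5.43 and Chaf1b, a subunit of the replication-coupled assembly factor CAF-1, by 4.36, while Ipo4, an importin for H3 and H4, fell by 1.11. Of the replacement histone genes, which are expressed outside S phase too and are in most cases polyadenylated, 10 of 11 had a row and 9 rose. Cenpa, the centromeric H3, rose by 7.08 ± 0.46, H2afx by 2.01 ± 0.10 and H2afy, a macroH2A gene, by 1.27 ± 0.07.

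Loss of Kdm5a alone, which went with a difference in the embryo's sex, left most of the family without a change that passed. Between Kdm5a KO and WT, 27.2% of all genes tested passed (13.4% rose), and 4 of the 34 members rose and none fell by limma, with a median of 0.19. At an unadjusted p under 0.05, 5 members were higher and 3 lower, and 1 member fell by DESeq2 and none by edgeR. Hist1h4d had 100.4 and 92.4 normalised reads in Kdm5a KO, against 40.7 and 48.0 in WT, a change of 1.11 ± 0.16 (limma adjusted p = 3.3e-04). Hist1h2bg had 273 and 248 in Kdm5a KO, against 134 and 187 in WT (0.71 ± 0.19, limma adjusted p = 0.016). Both genes were higher in each Kdm5a KO library than in either WT library. Hist1h4j had 57.0 and 107 in Kdm5a KO, against 40.7 and 38.4 in WT (0.97 ± 0.25, limma adjusted p = 0.013), and Hist1h2ad 45.2 and 42.0 against 25.1 and 18.1 in WT (0.996 ± 0.34, limma adjusted p = 0.044). Only the call of Hist1h4d held in every alternative run: Hist1h2bg had a limma adjusted p of 0.098 without Kdm5a KO replicate 1, Hist1h4j one of 0.12 without Kdm5a KO replicate 2, and Hist1h2ad lost its call in 9 alternatives, with an adjusted p of up to 0.15. Without WT replicate 1 the change of Hist1h2bg was 0.48, and without Kdm5a KO replicate 2 that of Hist1h4j was 0.52. The share of members called is below that of all genes. Without Kdm5a KO replicate 1, or without replicate 2, it came to 2 members, and without WT replicate 1 to 7.

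Hist1h1c had 5573 and 5388 in Kdm5a KO, against 5475 and 5648 in WT, with a log2 change of -0.02 ± 0.07, and Hist1h2bc changed by 0.08 ± 0.09. Ccna2 had 665 and 604 in Kdm5a KO, against 312 and 310.2 in WT, and 8 of 24 S-phase genes rose while 2 fell. Slbp and Npat did not pass. The muscle marker sum was 371220 to 388265 in Kdm5a KO against 388935 to 420747 in WT, and the fibroblast sum 7171 to 7489 against 11307 to 11475. Within these sums Myh3 and the fibroblast markers Lum, Pdgfra and Thy1 went the other way. They were higher in both Kdm5a KO libraries than in either WT library.

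The DKO cultures combined high S-phase histone genes with higher levels than Rb1 KO of genes that fell in Rb1 KO. Against WT, 67.9% of all genes passed (34.0% rose and 33.9% fell), and of the 34 members 31 rose and 2 fell, with a median of 2.96 against -0.0036 over all genes. Of the members with a mean of at least 10 in both groups 19 rose and 2 fell. The summed level of the 45 genes outside the polyadenylated list was 11349 and 10093 in DKO, against 2468 and 2522 in WT, and that of the list 7503 and 6458 in DKO, against 8204 and 8658 in WT. Members made up 0.115% and 0.101% of the DKO signal. DKO and Rb1 KO are here set against the same WT libraries. Genes that fell in Rb1 KO were picked on the same Rb1 KO libraries with which DKO is then compared. Part of their higher level in DKO can follow from that choice.

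Hist1h1a had 1817 and 1557 normalised reads in DKO, against 71.8 and 109.8 in WT, a change of 4.23 ± 0.20 (limma adjusted p = 1.4e-09). Hist1h1b had 723 and 645 in DKO, against 20.3 and 35.2 in WT (4.62 ± 0.24, limma adjusted p = 3.6e-09), and Hist1h4d 587 and 554 in DKO, against 40.7 and 48.0 in WT (3.66 ± 0.16, limma adjusted p = 8.9e-10). The fallers were Hist1h2bc, by 0.60 ± 0.09 (limma adjusted p = 7.8e-05), and Hist1h1c, by 0.35 ± 0.07 (limma adjusted p = 4.9e-04). Hist1h2bc had 1515 and 1370.5 in DKO, against 2034 and 2359 in WT, and Hist1h1c 4708 and 4017 in DKO, against 5475 and 5648 in WT. Hist3h2ba, an H2B gene of the polyadenylated list, had 42.1 and 34.8 in DKO, against 4.79 and 2.13 in WT, and rose by 3.20 ± 0.78 (limma adjusted p = 0.0028). Its mean was under 10 in each other mixed group, so it had entered the test through DKO. Hist2h2be, with 286 and 199 in DKO against 133 and 162 in WT, rose by 0.70 ± 0.27 (limma adjusted p = 0.036), and without DKO replicate 1 or WT replicate 1 its adjusted p was 0.30 or 0.15.

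Genes of the H2A and H2B classes that are known from the testis also had reads in DKO and, in part, in Rb1 KO; they were chosen after their values were seen and were too low to be tested, apart from Hist1h1t. Hist1h2ba had 39 reads over the DKO mixed libraries and none over the WT mixed libraries, at least 5.20-fold higher with 3 reads over the group as the floor. Over the Rb1 KO libraries it had 27 reads, at least 8.65-fold higher than WT on the same floor. Hist1h2aa had 38 reads in DKO and none in WT, at least 5.07-fold higher, and 2 reads in Rb1 KO. Hist1h1t, the testis linker histone gene, had 31.6 and 24.9 normalised reads in DKO, against 1.196 and 11.7 in WT, and rose by 2.46 ± 0.80 (limma adjusted p = 0.016). Of the other untested members, Hist1h2ak had 79 and Hist1h2ah 77 reads in DKO and none in WT, at least 10.5-fold and 10.3-fold higher. The highest normalised read count of any untested member in a mixed library was 39.4, for Hist1h3e.

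The same comparison against Kdm5a KO gave 67.2% of all genes passing (33.7% rose and 33.4% fell), and 28 members rising and 2 falling, with a median of 2.63. Of the 22 members with a mean of at least 10 in both groups 16 rose and 2 fell, with a median of 2.07. The other 12 tested had a lower Kdm5a KO mean, and all of them rose. These 12 had entered the test through the groups in which they were high, so their rise follows in part from the filter. Hist1h1e had 1606 and 1605 normalised reads in DKO, against 261 and 275 in Kdm5a KO (2.58 ± 0.09, limma adjusted p = 1.3e-10). Hist1h2bc and Hist1h1c fell by 0.68 and 0.33. Hist3h2ba had 168 reads over the DKO libraries and none over the Kdm5a KO libraries, at least 32.0-fold higher. In this comparison both groups lack Kdm5a and both had Xist.

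DKO against Rb1 KO compares cells without Rb1 that lacked or had Kdm5a, and the embryo's sex differed in the same way. Here 47.3% of all genes passed (23.1% rose and 24.2% fell), and 8 of the 34 members rose and none fell by limma, with a median of 0.33 against -0.01 over all genes. The share of members that rose is close to that of all genes, and the share called is below that of all genes. At an unadjusted p under 0.05, 10 members were higher and none lower, and by edgeR 1 fell. On the polyadenylated list 5 of 6 tested members rose, and outside it 3 of 28. The list was drawn up with earlier results of these data known. Among the 5, Hist3h2ba had entered the test through DKO, where alone its mean was above 10. Hist2h2be had 286 and 199 normalised reads in DKO, against 44.6 and 26.2 in Rb1 KO, a change of 2.76 ± 0.27 (limma adjusted p = 3.5e-06). Hist1h2be had 1159.9 and 898 in DKO, against 440.2 and 336 in Rb1 KO (1.41 ± 0.15, limma adjusted p = 6.6e-06). Each of these DKO libraries was above each Rb1 KO library.

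Hist1h2bc had 1515 and 1370.5 in DKO, against 843 and 768 in Rb1 KO, and rose by 0.84 ± 0.09 (limma adjusted p = 1.0e-05). Hist3h2a had 845 and 755 in DKO, against 390.2 and 349 in Rb1 KO (1.11 ± 0.16, limma adjusted p = 1.0e-04). Hist3h2ba had 42.1 and 34.8 in DKO, against 1.35 and 9.96 in Rb1 KO (2.95 ± 0.78, limma adjusted p = 0.0075), with an adjusted p of 0.076 without Rb1 KO replicate 1. Hist1h1c, Hist1h1d and Hist1h1a rose by 0.43, 0.38 and 0.93. H4 genes did not pass, with changes of -0.31 to 0.49. All 10 muscle markers rose in the same comparison, with a sum of 166885 to 181571 in DKO against 65509 to 66176 in Rb1 KO, and 8 of 10 fibroblast markers fell, with 12811 to 13245 against 62244 to 73135; their part in the result was not tested. Of the S-phase genes 12 rose and 2 fell, with a median of 0.41, and Coil rose by 1.81 ± 0.12.

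**Figure D4:**
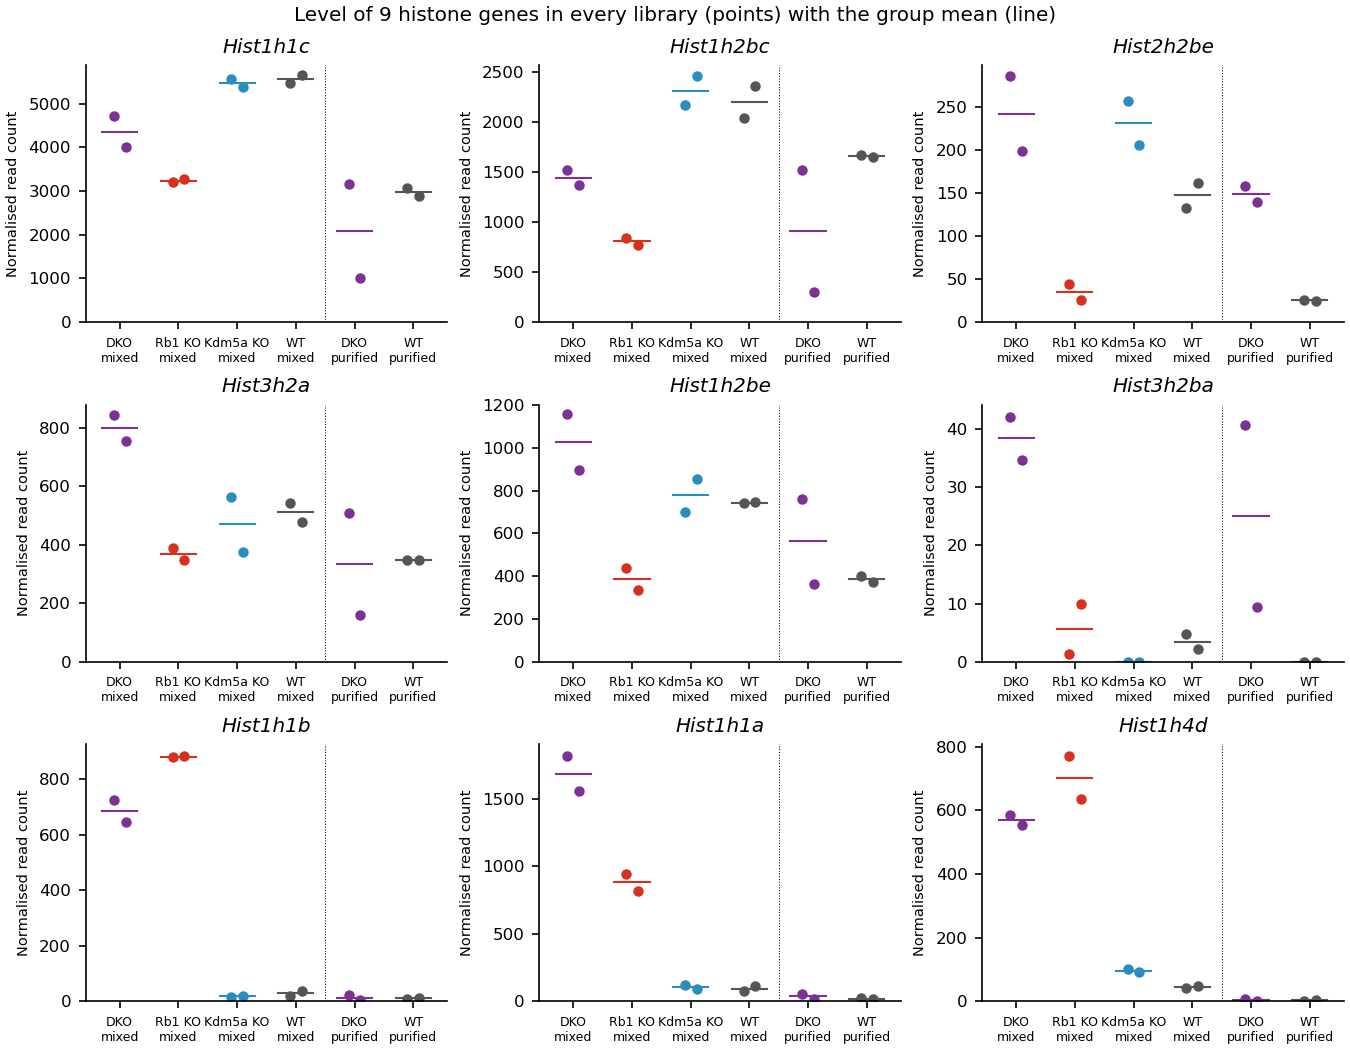
Normalised read count of 9 histone genes in each of the 12 libraries, with the mean of each group as a line; mixed groups stand left and purified groups right of the dotted line. Hist2h2be had 26.2 to 44.6 in Rb1 KO and 133 to 286 in the other mixed groups, and Hist1h1b had 645 to 882 in DKO and Rb1 KO mixed and at most 21.1 in purified libraries.

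In cells without and with Rb1 alike, Kdm5a loss cannot be told apart from the embryo's sex. The interaction term asks whether the effect of Kdm5a loss differs between cells without and with Rb1. It passed for 38.3% of all genes (18.8% positive and 19.5% negative) and for 8 of 34 members. It was positive for Hist3h2ba (5.04 ± 1.10), Hist2h2be (2.12 ± 0.38), Hist1h2be (1.35 ± 0.21), Hist3h2a (1.26 ± 0.23), Hist1h2bc (0.76 ± 0.13), Hist1h1d (0.49 ± 0.15) and Hist1h1c (0.45 ± 0.10), and negative for Hist1h4d (-1.40 ± 0.23), with limma adjusted p of 2.7e-04 to 0.024. Hist3h2ba averaged 38.4 in DKO, 5.65 in Rb1 KO, 0 in Kdm5a KO and 3.46 in WT. It had entered the test through DKO, so its term follows in part from the filter. The terms share their libraries with the comparisons above. For Hist1h4d the difference of DKO from Rb1 KO was -0.30 and that of Kdm5a KO from WT 1.11. Of the muscle markers 10 of 10 had a positive term and of the fibroblast markers 9 of 10 a negative one.

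In purified myotubes the S-phase genes were high in DKO and most histone members were low in both genotypes. Between DKO and WT purified libraries 39.6% of the 16670 genes tested passed (21.0% rose and 18.6% fell), and 15 of the 52 members reached the filter. Of these 3 rose and none fell by limma, with a median of 0.27 against -0.05 over all genes. At an unadjusted p under 0.05, 4 were higher and none lower, and neither edgeR nor DESeq2 called a fall. Hist2h2be had 158 and 139 normalised reads in DKO, against 26.0 and 24.8 in WT, a change of 2.50 ± 0.31 (limma adjusted p = 0.0043). Hist1h2bp had 69.9 and 64.9 in DKO, against 7.44 and 3.73 in WT (3.44 ± 0.49, limma adjusted p = 0.0063). Hist3h2ba had 40.7 and 9.42 in DKO and no read in WT, with 34 reads over the DKO libraries, at least 9.69-fold higher. For each of the 3 genes both DKO libraries were above both WT libraries. Hist1h2bp and Hist3h2ba had a WT mean under 10 and had entered the test through DKO, so their calls follow in part from the filter. Of the 12 members with a mean of at least 10 in both groups only Hist2h2be rose and none fell, with a median of 0.067.

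The abundant members did not pass, and their DKO purified libraries lay far apart. Hist1h1c had 3163 and 1009.8 in DKO, against 3081 and 2897 in WT (-0.74 ± 0.54, limma adjusted p = 0.32). Hist1h2bc had 1517 and 303 in DKO, against 1665 and 1649.8 in WT (-1.29 ± 0.75, limma adjusted p = 0.22). Hist3h2a had 509 and 160.1 in DKO, against 348 and 348 in WT. In each case DKO replicate 1 was near or above WT and replicate 2 well below it. Members called numbered 9, all higher, without DKO replicate 2, and 5, with 2 higher and 3 lower, without DKO replicate 1. Summed member value was 0.0511% and 0.0152% of the DKO signal, against 0.0331% and 0.0329% in WT.

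All 24 S-phase genes rose in purified DKO against WT, with a median of 3.92, where 21.0% of all genes rose and 18.6% fell. Ccna2 had 6076 and 7031 in DKO, against 370.2 and 303 in WT, a change of 4.28 ± 0.21. Slbp had 437 and 306 in DKO, against 130.2 and 165 in WT (1.31 ± 0.29, limma adjusted p = 0.022), and Npat did not pass. Of the chaperone genes 14 of 27 rose and 1 fell, among them Asf1b with 4.80 ± 0.18 and Chaf1a with 3.69 ± 0.22. Among replacement histones 7 of 10 rose and 1 fell, with Cenpa at 1324 and 1875 in DKO, against 7.44 and 0 in WT. The muscle marker sum was 216969 to 219536 in DKO against 547777 to 559261 in WT. Not all markers moved with it: Ckm had 2306 and 2298 in DKO, against 463 and 432 in WT. Tnnt3 had 31142 and 14007 in DKO, against 8939 and 7962 in WT, and Mymk in DKO lay on both sides of WT. The other muscle markers were lower in both DKO libraries than in either WT library. Sums of macrophage and blood markers were 428 to 1049 in DKO against 128 to 155 in WT, with Adgre1 and Hba-a1 at 0 in both. Most of that sum was Cd68, a lysosomal gene of macrophages, with 416 and 1043 in DKO, against 42.8 and 53.4 in WT, while Csf1r, a receptor gene of macrophages, fell to 8.13 and 5.23 in DKO, against 81.9 and 99.4 in WT, and Ptprc and Tyrobp had at most 3.72 in any purified library. Sums of endothelial, epithelial and neural markers were also higher in DKO; the part of these markers was not tested.

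Whether the DKO effect differs between purified and mixed libraries was tested on all 12. The difference passed for 24.8% of 17273 genes (11.6% positive and 13.2% negative), and for 15 of 34 members, 14 of them negative, with a median of -1.79 against -0.06 over all genes. The count was 23, with 22 negative, without DKO purified replicate 1, 9 without DKO mixed replicate 2, and 9 by edgeR on whole reads. Of the S-phase genes 2 were positive and 3 negative, with a median of -0.36. For Hist1h1b the difference was -4.62 ± 0.71 (limma adjusted p = 0.0014), with 21.1 and 5.23 in DKO purified against 9.30 and 12.4 in WT purified. For Hist1h1a it was -3.56 ± 0.59 (limma adjusted p = 0.0021), with 52.04 and 17.8 in DKO purified against 20.5 and 17.4 in WT purified. Hist2h2be was the positive one, at 1.80 ± 0.41 (limma adjusted p = 0.011), and without DKO mixed replicate 2 it was 1.54 and did not pass (limma adjusted p = 0.058).

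Several of the negative genes were close to 0 in both purified groups, where log2(value + 1) leaves little room for a change. Hist1h3a had 0 and 1.05 in DKO purified, against 0 and 1.24 in WT purified, and Hist1h4f 0 and 1.05 in DKO purified against 0 and 0 in WT purified. Their differences were -4.95 ± 0.84 and -4.91 ± 0.83, and neither passed with edgeR on whole reads. Of the 52 members 34 were tested. Over all 52, tested or not, 45 lie outside the polyadenylated list and 20 have an annotated transcript that ends within 100 bases of the stem-loop. Hist1h1c and Hist1h2bc, on the list, fell in DKO mixed cultures, a change that the difference subtracts. All 14 negative members lie outside the list, and 10 of them have such a transcript. Some of the 14, such as Hist1h3a and Hist1h4f, had entered the test through mixed groups in which they were high. This division thus follows in part from the filter. That division depended on the DKO purified library: without replicate 1, 4 members of the list also passed as negative, Hist1h1c at -1.21, Hist1h2bc at -1.84, Hist3h2a at -1.76 and Hist1h2ac at -1.81, and without replicate 2 Hist1h1c at 0.44 and Hist1h2bc at 0.48 passed as positive.

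Levels are given side by side without a test, since oligo(dT) selection, purification, recovery time and sequencing run cannot be told apart between mixed and purified libraries. Summed over the polyadenylated list, the DKO purified mean was 50.4% of the DKO mixed mean and the WT purified mean 59.6% of the WT mixed mean. By library these shares were 77.6% and 23.3% in DKO, and 60.8% and 58.4% in WT, so the DKO libraries lay on both sides of WT. Summed over the other 45 genes the share was 16.9% and 7.86% in DKO, and 30.5% and 33.8% in WT. Hist1h4d had 6.50 and 2.09 in DKO purified, 587 and 554 in DKO mixed, 0 and 4.97 in WT purified and 40.7 and 48.0 in WT mixed. In the 2 DKO purified libraries Hist1h1a kept 3.08% and 1.05% of its DKO mixed mean, and Hist1h1b 3.09% and 0.765%. Hist1h1c kept 72.5% and 23.1%, Hist3h2ba 106% and 24.5%, and Hist2h2be 65.1% and 57.5%, so that among these only Hist2h2be had like shares in both libraries. The order differed in WT, where Hist1h1a kept 22.5% and 19.2%, Hist1h1b 33.5% and 44.8%, and Hist2h2be 17.7% and 16.9%. Hist1h1c kept 55.4% and 52.1% in WT. Outside the list, Hist1h2be, which overlaps Hist1h1e, kept 74.1% and 35.5% in the DKO libraries, and 53.8% and 50.3% in the WT libraries. Another gene with high shares was Hist1h4i, with 371 and 125 in DKO purified, 382 and 311 in DKO mixed, 63.3 and 80.8 in WT purified and 123 and 122 in WT mixed. Its annotated transcript runs on for 330 bases after the stem-loop and carries a poly(A) signal near its end. Hist1h2be and Hist1h4i were singled out here after their values were seen. Hist1h4j, with 385 bases after the stem-loop and a poly(A) signal, kept 0.783% and 0.504% in DKO and 0% in both WT libraries. Summed over the 14 members with a poly(A) signal near the end, the purified mean was 43.5% of the mixed mean in DKO and 53.1% in WT. Over the 38 members without one it was 13.9% in DKO and 53.7% in WT. Hist1h2ac, on the list, kept 27.6% and 7.77% in DKO, and no poly(A) signal lay in its last 50 bases. Hist1h2bc, on the list and also without that signal, kept 105% and 21.0% in DKO, and 75.8% and 75.1% in WT.

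**Figure D5:**
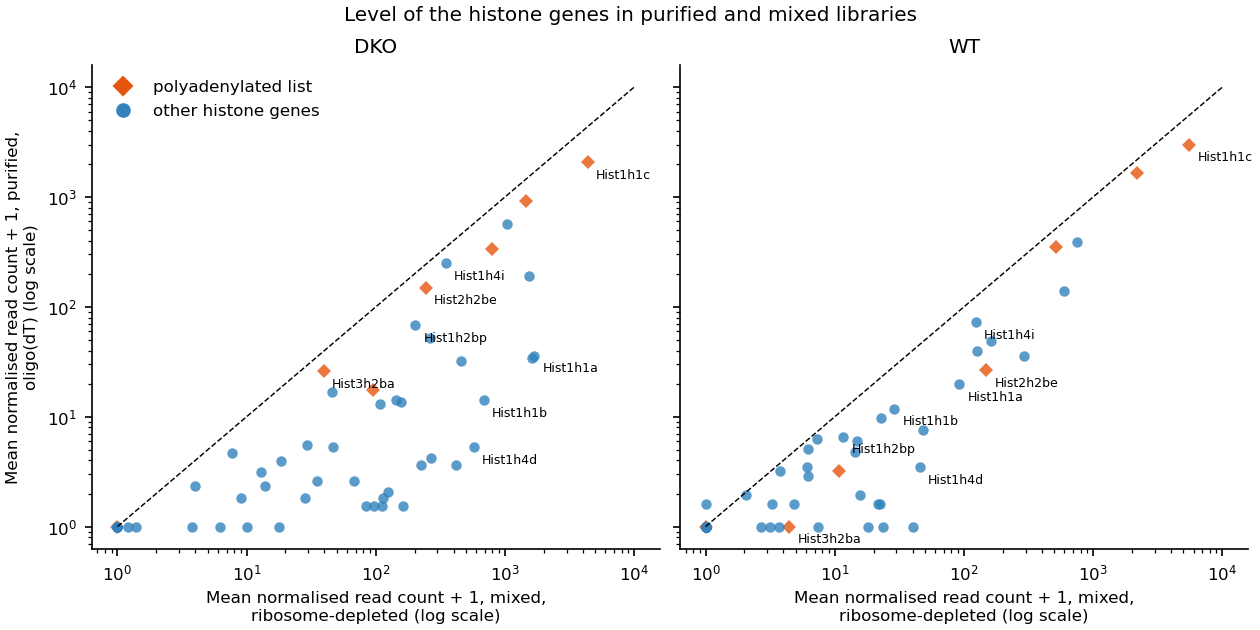
Mean normalised read count + 1 of the 52 histone genes in purified, oligo(dT) libraries (vertical) against mixed, ribosome-depleted libraries (horizontal), both log scales, in DKO (left) and WT (right); orange diamonds are the polyadenylated list and the dashed line marks equal levels. In DKO, Hist1h1a and Hist1h1b lie far under the line, at 2.07% and 1.93% of the mixed level. Hist2h2be and Hist3h2ba lie near it in DKO, at 61.3% and 65.2%, and the mean of Hist3h2ba covers libraries at 106% and 24.5%. In WT the levels were 20.8% for Hist1h1a, 39.1% for Hist1h1b and 17.3% for Hist2h2be.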

How the data were processed

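RNA-seq values of 12 libraries in 6 groups of 2 were used. Per the submitters' processing notes, the authors aligned reads to mm9 with TopHat 1.2.0 and normalised with DESeq; the deposited signal is a read count per gene divided by a size factor per library, and all values of each library came out as whole reads within 0.01. Library sizes and depth are given in ranges above.

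Genes were named from GENCODE M21 (GRCm38), which gave a symbol to 85.5% of the row identifiers; promoter windows are RefSeq's (GRCm38.p6). Genes with a mean of at least 10 in the libraries fitted were tested with limma 3.58.1 (R 4.3.3) on log2(value + 1), which understates changes of low genes. The 8 mixed libraries were fitted together, the 4 purified ones apart, and all 12 for the difference between them. Scripts were tested on simulated data. Alternatives were edgeR 4.0.16 and DESeq2 1.42.0 on recovered reads, other pseudocounts, no filter, TMM scaling, the replicate number as a block, each library left out, and members that overlap or resemble other genes left out, the last chosen after seeing the data.

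The members and lists were chosen with earlier results of these data known. Named genes are the 3 highest of each class, the polyadenylated list, up to 4 genes of smallest p in each direction of a comparison and up to 4 of each other list, and Rb1, Kdm5a, Slbp, Npat, Myh3 and Ccna2; partners in head-to-head pairs and a few others were chosen after their values were seen.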

Additional observations from a re-analysis of the deposited data

Results flagged for a closer look

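In 8 of 34 members the effect of Kdm5a loss, tested as an interaction in mixed cultures, differed between cells without and with Rb1, against 38.3% of all genes tested, and 5 of these members, those of smallest p in each direction, are given here. The term was 1.35 for Hist1h2be, 2.12 for Hist2h2be, 1.26 for Hist3h2a and 0.76 for Hist1h2bc, all higher in cells without Rb1, and -1.40 for Hist1h4d. In Hist2h2be the DKO minus Rb1 KO difference was 2.76 and the Kdm5a KO minus WT difference 0.64. In Hist1h4d these differences were -0.30 and 1.11. Kdm5a genotype and the embryo's sex cannot be told apart in either difference.

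In 15 of 34 members, against 24.8% of all genes tested, the effect of the DKO genotype differed between purified and mixed libraries, and the 5 of smallest p in each direction are given. It was lower in purified libraries by a log2 difference of -4.62 for Hist1h1b, -3.56 for Hist1h1a, -4.95 for Hist1h3a and -4.91 for Hist1h4f, and higher by 1.80 for Hist2h2be. Hist1h3a and Hist1h4f had at most 1.24 normalised reads in any purified library, where a change has little room. Neither passed with edgeR on whole reads (adjusted p of 0.087 and 0.93), and Hist1h4f did not pass with DESeq2 (adjusted p = 0.086). Hist2h2be did not pass in limma without DKO mixed replicate 2 (1.54, adjusted p = 0.058).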

How the results depend on the processing

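The counts of members called kept within 1.5 times of the reported number under all alternatives run for DKO against WT, Rb1 KO and Kdm5a KO in mixed cultures and for the interaction. For Rb1 KO against WT, 19 of 22 passed when overlapping members were left out, where fewer members remained to be tested, against 30 of 34. For Kdm5a KO against WT the count of 4 was 2 without the members of low uniqueness, and 2 to 7 as each library was left out. For DKO against WT in purified myotubes the count of 3 was 5 without a filter and 3 to 9 as each library was left out. For purified minus mixed the count of 15 was 9 with edgeR, 9 without the members of low uniqueness, and 9 to 23 as each library was left out. The cause of these changes was not tested.

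Of 1126 values of named genes under alternatives, 1086 kept direction and side of the threshold, 23 lost and 14 gained a call, and 3 reversed. Hist3h2a in purified DKO against WT, at -0.28, ran from -1.11 to 0.55 as the DKO purified libraries were left out. In purified minus mixed, Hist1h1c ran from -1.21 to 0.44 around -0.39 and Hist1h2bc from -1.84 to 0.48 around -0.68. Hist1h2ad in Kdm5a KO lost its call in 9 alternatives, with adjusted p up to 0.15.

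The replicate numbers did not pair the samples, since same-numbered libraries deviated from their group means with correlations of -0.047 to 0.052. With the replicate number as a block the count for DKO against WT in purified myotubes was 5, with 4 higher and 1 lower (Hist1h2bc, -1.29, limma adjusted p = 0.0068), and the other counts were 29, 33, 3, 8, 30, 8 and 14 in the order Rb1 KO, DKO and Kdm5a KO against WT, DKO against Rb1 KO and Kdm5a KO, interaction, and purified minus mixed.

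With 2 libraries a group, the changes of members with few reads were measured with wide errors. Several members share sequence or exons with other genes, and mixed and purified libraries differ in RNA selection.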
